A study of Mus musculus with 6 samples.

Results

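Antibody transcripts were read out in epididymal white adipose tissue, the visceral fat pad beside the epididymis, through 10 genes: the heavy chain constant region genes Ighm, Ighd, Igha, Ighg1, Ighg2b, Ighg2c and Ighg3, the kappa light chain constant gene Igkc, the J chain gene Jchain, and Mzb1. They were named as a family and not picked by a measured value, though with earlier results of these data known. All 10 were found among 54532 gene identifiers. Whole-tissue RNA sequencing covered 6 libraries. In the knockout group the animals were PD-1fl/fl Lyz2-Cre, a genotype in which Pdcd1, the gene of the inhibitory receptor PD-1, is deleted where the Lyz2 locus is active. The control group consisted of PD-1fl/fl littermates without Cre. All of them ate a high-fat diet for 16 weeks, and each group had 3 libraries. Lyz2-Cre acts in macrophages and other myeloid cells, so B cells and plasma cells are not where the deletion is directed, and T cells keep the gene.

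A B cell first displays its antibody as membrane IgM, often together with IgD, which is spliced from the same long transcript. After activation it can exchange the constant region for IgG, IgA or IgE by class switching, and when it becomes a plasma cell it secretes the antibody in bulk and fills its mRNA with immunoglobulin transcripts. J chain links the subunits of pentameric IgM and dimeric IgA, and Mzb1 is a chaperone cofactor of the endoplasmic reticulum that helps assemble secreted antibody. Visceral fat of obese mice is known to gather B cells, and its lymphoid clusters and the neighbouring peritoneal cavity hold B-1 cells that make IgM. In GRCm38 (mm10) the heavy chain constant genes stand in a row on the minus strand of chromosome 12, with Ighm the most upstream (highest coordinate 113422730) and Igha the most downstream (lowest coordinate 113254830). Igkc lies at chr6:70726435-70726966 on the plus strand and Jchain at chr5:88519809-88527891 on the minus strand.

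Total counts were 20108185 to 27225533 per library. Control replicate 2, the library titled HF_7690_eWAT, did not carry the profile of fat: its summed level of 12 adipocyte genes was 1340 CPM (counts scaled to library size, with TMM factors) against 24700 to 64100 CPM in the other 5 libraries. Its summed level of 14 hepatocyte genes was 241000 CPM against 136 to 8970 CPM. Results are therefore given with and without control replicate 2. Leaving it out does not remove all hepatocyte transcripts. Alb stood at 3880 CPM in control replicate 3, against 7.38 CPM in control replicate 1 and 4.02, 654 and 57.6 CPM in knockout replicates 1 to 3. In control replicate 1 Cyp2e1 supplied 8090 of the summed 8110 CPM. The counts of Pdcd1 were 19, 19 and 5 in the knockouts, against 13, 0 and 0 in the controls, in replicate order. Whole-tissue counts of the full gene cannot check a deletion limited to myeloid cells. Nothing in the labels says whether the libraries are separate animals. The p-values set the difference between the groups against the spread of these 6 samples within groups. They speak for other animals only if the libraries are separate animals. In whole tissue, fewer antibody-making cells and less antibody RNA per cell cannot be told apart.

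The 10 genes together took 0.0759%, 0.17% and 0.0477% of the counts in knockout replicates 1 to 3, against 0.0361%, 0.0305% and 0.0866% in control replicates 1 to 3. Counting error is small beside these differences: the 95% exact Clopper-Pearson interval was 0.169% to 0.172% in knockout replicate 2, the highest library, and 0.0298% to 0.0313% in control replicate 2, the lowest. The groups overlapped, since control replicate 3 lay above knockout replicates 1 and 3.

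No member passed the test between genotypes. By edgeR's quasi-likelihood test with Benjamini-Hochberg adjustment over all genes, 0 of 10 members were called with 6 libraries, where 0.0% of 15928 genes were called and 1377 genes had an unadjusted p under 0.05. Without control replicate 2 the count was again 0 of 10 members and 0.0% of 16729 genes, with 1499 genes at an unadjusted p under 0.05. DESeq2 called 0 members in either set of libraries, although it called 530 genes with 6 libraries (1.42% of genes as higher in knockouts and 1.7% as lower) and 482 genes without control replicate 2 (2.2% higher and 0.674% lower). limma-voom called 0 genes in both, with 983 and 1286 genes at an unadjusted p under 0.05. For none of the 10 members did the libraries of the groups separate, whereas each knockout lay above each control for 9.54% of genes and below each control for 5.61%. The median log2 fold change of the members, knockout over control, was -0.59 with 3 of 10 above 0, beside -0.03 for all genes tested. Without control replicate 2 it was -0.17 with 4 of 10 above 0, beside -0.04.

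**Figure D1:**
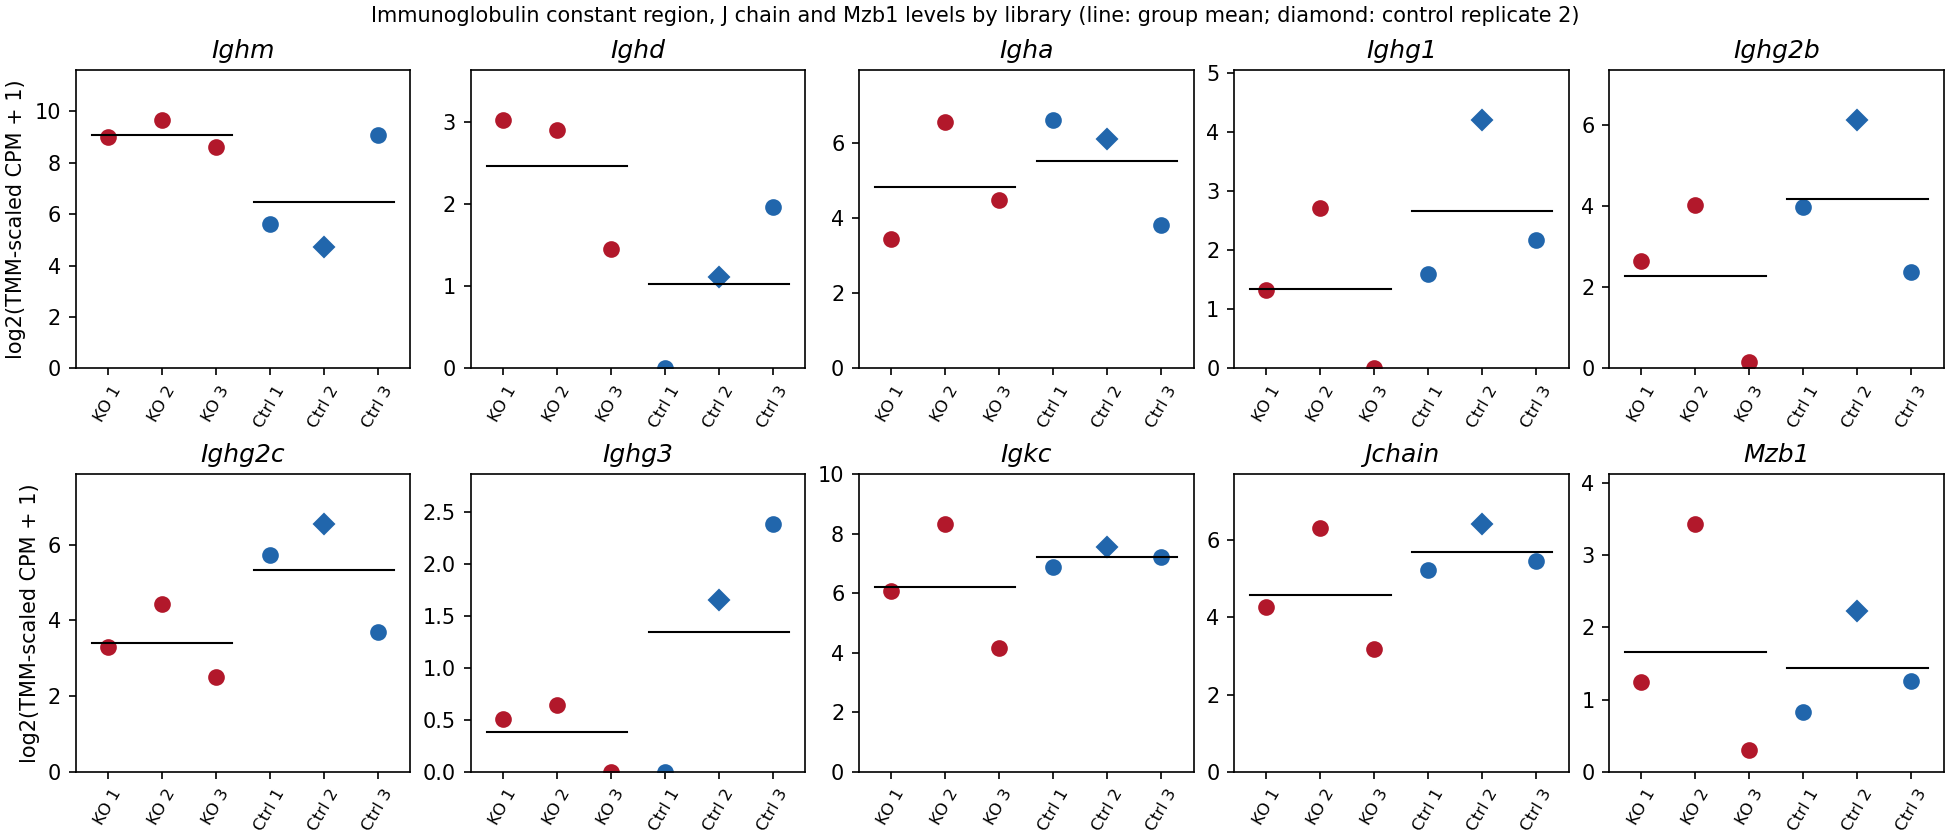
Levels of the 10 genes as log2(TMM-scaled CPM + 1), with knockout libraries (KO, red) left of control libraries (Ctrl, blue) in each panel, group means as lines and control replicate 2 as a diamond. In every panel the points of the 2 groups overlap; Ighm stands at 392 to 813 CPM in the 3 knockouts and 537 CPM in control replicate 3, against 48.4 and 25.7 CPM in the other controls.

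Libraries of the same genotype differed widely in these genes. Between the highest and lowest knockout library the median member spanned 2.9 on the log2(CPM + 1) scale, against 0.53 for the median of all genes tested. Among the 3 controls the spans were 2.5 for the members and 1.15 for all genes, and between control replicates 1 and 3 alone they were 1.78 and 0.47. These spans are a description and were not tested.

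Ighm, the µ heavy chain of IgM, was per length the most abundant of the heavy chain genes in 4 of 6 libraries. It had 15635, 23177 and 10113 counts in knockout replicates 1 to 3, which is 511, 813 and 392 CPM. Control replicates 1 to 3 had 1293, 287 and 14649 counts, or 48.4, 25.7 and 537 CPM. All 3 knockouts were high, and so was control replicate 3, which exceeded knockout replicates 1 and 3. The means were 572 ± 217 CPM in knockouts and 204 ± 289 CPM in controls (SD, n = 3 each). The log2 fold change was 1.49 ± 1.16 (SE, edgeR adjusted p = 0.729), and 1.00 ± 0.95 without control replicate 2 (adjusted p = 0.774). Over 16 alternatives the adjusted p was 0.261 to 1.0, and leaving out control replicate 3 gave the largest log2 fold change, 3.95.

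Ighd, the δ heavy chain carried by naive B cells next to IgM, was scarce. It had 219, 186 and 45 counts in knockout replicates 1 to 3, against 0, 13 and 79 counts in control replicates 1 to 3. Its levels were 7.16, 6.52 and 1.75 CPM in the knockouts, against 0, 1.16 and 2.90 CPM in the controls. Knockout replicates 1 and 2 were highest and control replicate 3 lay above knockout replicate 3. The log2 fold change was 1.92 ± 1.43 (SE, edgeR adjusted p = 0.713), or 1.86 ± 1.61 without control replicate 2 (adjusted p = 0.751). Per length, in FPKM (fragments per kilobase, scaled to the library), Ighm exceeded Ighd 71.9, 126 and 226 times in knockout replicates 1 to 3, against 22.2 and 187 times in control replicates 2 and 3. Control replicate 1 had no Ighd count, and a count of 0 allows up to 3.

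Igha, the α heavy chain of IgA, ran in a different order. It had 303, 2612 and 540 counts (9.90, 91.6 and 21.0 CPM) in knockout replicates 1 to 3, against 2564, 747 and 357 counts (96.0, 66.8 and 13.1 CPM) in control replicates 1 to 3. High and low libraries occurred in both groups, with control replicate 1 and knockout replicate 2 at the top. The log2 fold change was -0.52 ± 1.00 (SE, edgeR adjusted p = 0.916), and -0.39 ± 1.19 without control replicate 2 (adjusted p = 0.937).

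The µ and α chains end, in their secreted forms, in a short tailpiece whose cysteine bonds to J chain, and γ chains lack it. The last 60 coding bases of the secreted forms are shown because they mark which of these genes can make the polymers that use Jchain. They are given 5′ to 3′ from GENCODE vM21 transcripts on GRCm38 (mm10), with the codon of the tailpiece cysteine in capitals. All lie on the minus strand, Ighm at chr12:113420870-113420929, Igha at chr12:113258771-113258830 and Ighg2b at chr12:113306392-113306451.
Ighm: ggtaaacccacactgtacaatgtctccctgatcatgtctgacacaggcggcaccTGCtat
Igha: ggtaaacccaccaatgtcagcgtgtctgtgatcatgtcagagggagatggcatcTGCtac
Ighg2b: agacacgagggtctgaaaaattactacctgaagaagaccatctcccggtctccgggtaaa
The Ighm and Igha ends each hold 1 cysteine codon in frame, and the Ighg2b end holds 0. They are reference sequences; the labels name no strain, and alleles of these mice were not read.

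The 4 IgG genes of the γ heavy chains were lower than Ighm in every knockout. Ighg2c, the IgG2a-type gene of the C57BL/6 haplotype, was the most abundant of them in all 6 libraries, by count and per length. It had 268, 588 and 120 counts (8.76, 20.6 and 4.66 CPM) in knockout replicates 1 to 3, against 1389, 1038 and 327 counts (52.0, 92.8 and 12.0 CPM) in control replicates 1 to 3. Control replicates 1 and 2 stood above all knockouts, while control replicate 3 fell among them. The means were 11.3 ± 8.29 CPM in knockouts and 52.3 ± 40.4 CPM in controls (SD, n = 3 each). Ighg2c was the only member with an unadjusted p under 0.05 in edgeR. Its log2 fold change was -2.20 ± 0.87 (SE, edgeR adjusted p = 0.560). Without control replicate 2 it was -1.48 ± 0.81 (adjusted p = 0.626), and over 16 alternatives the adjusted p was 0.173 to 1.0.

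Ighg2b, the IgG2b gene, had 161, 438 and 3 counts in knockout replicates 1 to 3, against 395, 770 and 115 counts in control replicates 1 to 3. Its log2 fold change was -2.08 ± 1.55 (SE, edgeR adjusted p = 0.716), and -0.43 ± 1.5 (adjusted p = 0.942) once control replicate 2 was left out, whose level of 68.9 CPM was the highest. Ighg1, the IgG1 gene, had 46, 158 and 0 counts in knockout replicates 1 to 3, against 54, 194 and 96 counts in control replicates 1 to 3. Control replicate 2 was highest for Ighg1 too, and its log2 fold change of -1.69 ± 1.61 (adjusted p = 0.788) became -0.19 ± 1.59 without that library (adjusted p = 0.977). Ighg3, the IgG3 gene, had 13, 16 and 0 counts in knockout replicates 1 to 3, against 0, 24 and 116 counts in control replicates 1 to 3, with control replicate 3 highest. Its log2 fold change was -2.67 ± 1.83 (adjusted p = 0.686), and -2.63 ± 1.94 without control replicate 2 (adjusted p = 0.713). Knockout replicate 3 was the lowest library for Ighg1, Ighg2b and Ighg2c, and it shared 0 counts of Ighg3 with control replicate 1. The secreted coding sequences of Ighg2b and Ighg2c were 85.7% identical and those of the other IgG pairs 74.1% to 76.3%. The counting rule for reads matching several genes is not given in the sources used here, and the split among IgG genes is uncertain.

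Set against each other per length, the heavy chains differed in make-up from library to library. Ighm made up 94.2%, 87.5% and 94.4% of the summed FPKM of the 7 heavy chain genes in knockout replicates 1 to 3. In control replicates 1 to 3 it made up 24.0%, 9.55% and 93.4%. Ighm thus dominated the heavy chain FPKM of control replicate 3 as it did in the knockouts, and other heavy chain genes held most of it in control replicates 1 and 2. These are shares of constant region RNA and do not measure antibody. The means were 92.0% ± 3.93 in knockouts and 42.3% ± 44.8 in controls (SD, n = 3 each), and 58.7% in controls without replicate 2.

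**Figure D2:**
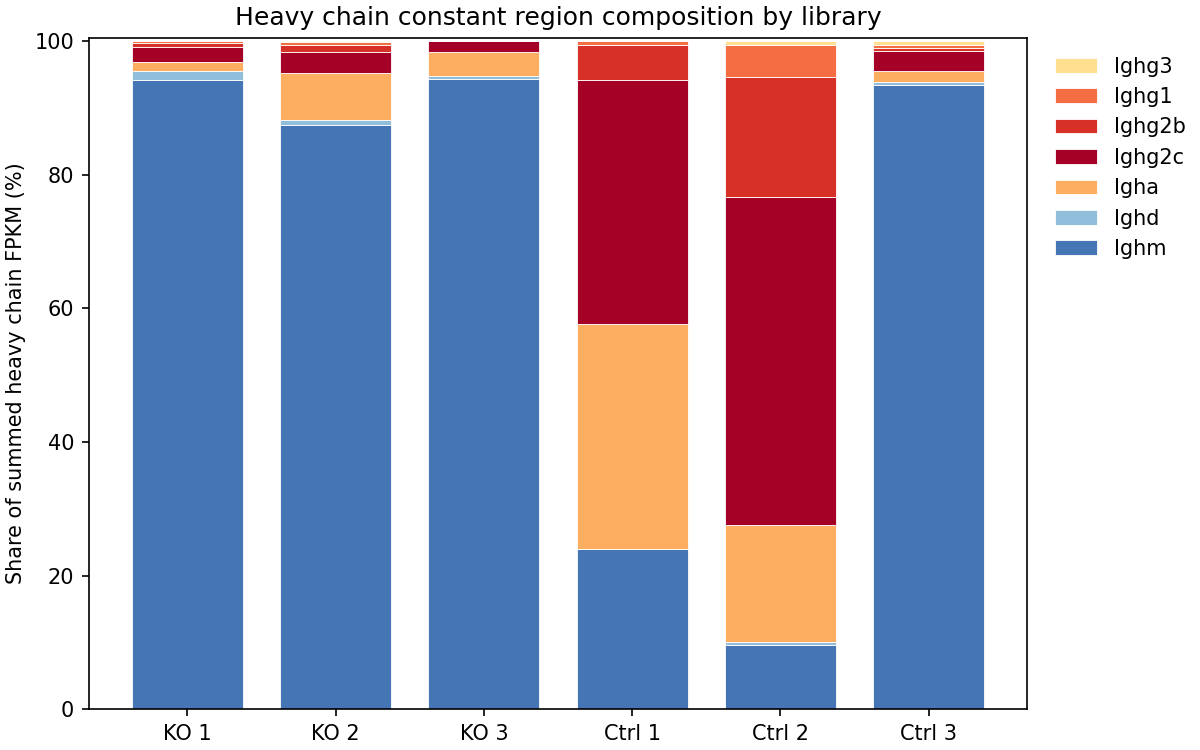
Share of each of the 7 heavy chain constant genes in their summed deposited FPKM, in percent, with 1 stacked bar per library, knockouts left of controls. Ighm takes 87.5% to 94.4% in the 3 knockouts and 93.4% in control replicate 3, against 24.0% and 9.55% in control replicates 1 and 2.

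The 4 IgG genes together held 3.24%, 4.8% and 1.61% of the heavy chain FPKM in knockout replicates 1 to 3, against 42.5%, 72.5% and 4.48% in control replicates 1 to 3. Igha held 1.29%, 6.97% and 3.56% in knockout replicates 1 to 3, against 33.6%, 17.6% and 1.61% in control replicates 1 to 3. The shares of the IgG genes and of Igha were therefore both high in control replicates 1 and 2 and low in the other 4 libraries. An exact permutation test of 3 against 3 libraries cannot give a p below 0.1, and the shares were not tested. Ighe, the ε heavy chain of IgE, had 0, 2 and 0 counts in the knockouts and 0 in every control, below the floor of 3 counts.

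Igkc, the constant region of the kappa light chain that most mouse antibodies carry, did not follow Ighm. It had 2052, 9187 and 435 counts (67.1, 322 and 16.9 CPM) in knockout replicates 1 to 3, against 3145, 2077 and 4053 counts (118, 186 and 149 CPM) in control replicates 1 to 3. The knockouts held both the highest and the 2 lowest libraries, 19.1 times apart, and the controls lay within 1.58 times of each other. The means were 135 ± 164 CPM in knockouts and 151 ± 34.0 CPM in controls (SD, n = 3 each). The log2 fold change was -0.15 ± 0.97 (SE, edgeR adjusted p = 0.979), and 0.07 ± 1.11 without control replicate 2 (adjusted p = 0.989).

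The lambda light chain genes were minor. Iglc1 had 43, 252 and 27 counts in knockout replicates 1 to 3, against 21, 100 and 28 counts in control replicates 1 to 3. Iglc2 had 36, 129 and 2 counts in the knockouts, against 46, 12 and 249 counts in the controls. Iglc3 had 11, 36 and 5 counts in the knockouts, against 0, 4 and 76 counts in the controls, and Iglc4 had 0 in all. Per length, lambda made up 4.41%, 4.67% and 8.28% of light chain constant FPKM in knockout replicates 1 to 3, against 2.01%, 5.99% and 7.71% in control replicates 1 to 3. Kappa was thus the main light chain in every library. The 3 lambda genes tested had log2 fold changes of 0.09 (Iglc1), -1.05 (Iglc2) and -0.81 (Iglc3), with edgeR adjusted p values of 0.989, 0.862 and 0.920. Iglc2 and Iglc3 overlap exons of annotated neighbours, so their counts are uncertain.

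Jchain, the joining chain, ordered the libraries almost as Igkc did and not as Ighm did. It had 561, 2212 and 208 counts (18.3, 77.6 and 8.07 CPM) in knockout replicates 1 to 3, against 965, 944 and 1164 counts (36.1, 84.4 and 42.7 CPM) in control replicates 1 to 3. Knockout replicate 2 and control replicate 2 were highest, knockout replicates 1 and 3 lowest. The means were 34.7 ± 37.5 CPM in knockouts and 54.4 ± 26.2 CPM in controls (SD, n = 3 each). The log2 fold change was -0.65 ± 0.84 (SE, edgeR adjusted p = 0.862), and -0.15 ± 0.90 without control replicate 2 (adjusted p = 0.968).

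Mzb1, which assists antibody folding in marginal zone B cells, B-1 cells and plasma cells, had 42, 280 and 6 counts (1.37, 9.82 and 0.233 CPM) in knockout replicates 1 to 3. Control replicates 1 to 3 had 21, 41 and 38 counts (0.786, 3.67 and 1.39 CPM). Mzb1 overlaps exons of an annotated neighbouring gene, so its counts are uncertain. Knockout replicate 2 held most of the Mzb1 counts and knockout replicate 3 the fewest, 42.2 times apart in CPM. The log2 fold change was 0.99 ± 1.3 (SE, edgeR adjusted p = 0.865), and 1.85 ± 1.46 without control replicate 2 (adjusted p = 0.734). Leaving out knockout replicate 2 gave -1.26, and over 16 alternatives the adjusted p was 0.584 to 1.0. The annotation places an exon of a neighbouring gene over Mzb1, so some of these reads may be that gene's.

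The ratios between members, taken per length within a library, put these patterns side by side. Igkc exceeded or fell short of Ighm by very different factors: the FPKM ratio of Igkc to Ighm was 0.465, 1.41 and 0.152 in knockout replicates 1 to 3, against 8.62, 25.7 and 0.981 in control replicates 1 to 3. The ratio of Jchain to Igkc was far steadier, at 0.0578, 0.0509 and 0.101 in the knockouts, against 0.0649, 0.0961 and 0.0607 in the controls. The ratio of Jchain to the sum of Ighm and Igha, the chains it joins, was 0.0265, 0.0662 and 0.0149 in the knockouts, against 0.233, 0.868 and 0.0585 in the controls. The 4 libraries with the most Ighm had the lowest values of the first and the last of these ratios, control replicate 3 included. Ighm is in the denominator of both, so a high Ighm by itself lowers them.

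Variable segments, the exons that encode the antigen-binding part of each chain, gave a separate readout of the same transcripts. Counts of Igkv segments per count of Igkc were 0.225, 0.340 and 0.228 in knockout replicates 1 to 3, against 0.310, 0.220 and 0.456 in control replicates 1 to 3. Counts of Ighv segments per 1000 counts of the heavy chain constant genes were 7.27, 36.0 and 3.97 in the knockouts, against 71.5, 35.1 and 29.4 in the controls. The kappa ratio stayed within a narrow band in all libraries. The heavy ratio was lowest in knockout replicates 3 and 1, where Ighm was high and Igkc low.

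**Figure D3:**
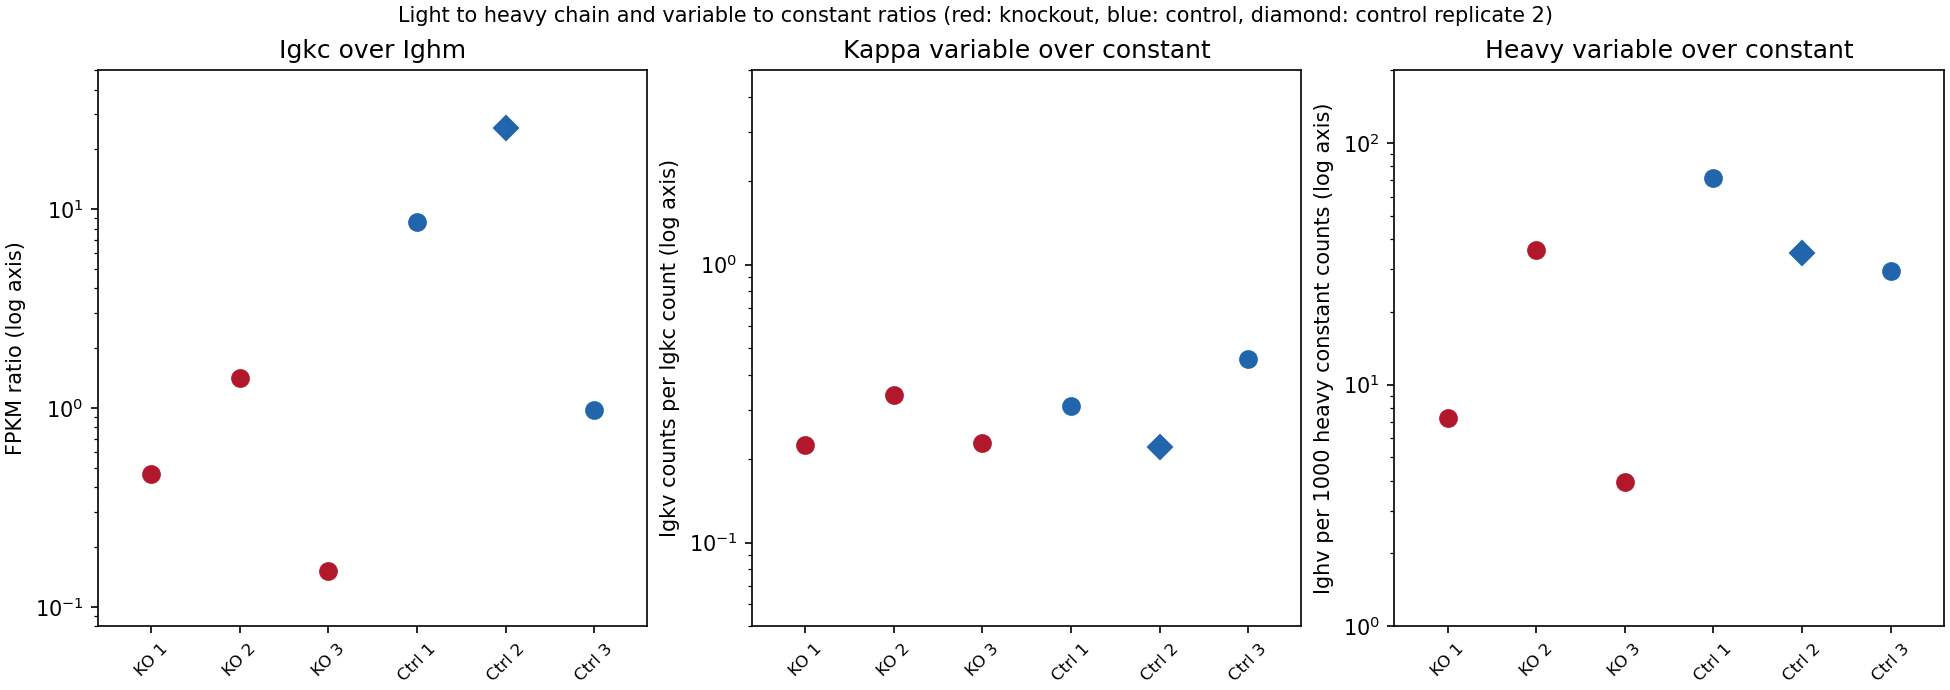
Left, FPKM of Igkc over FPKM of Ighm; middle, Igkv counts per Igkc count; right, Ighv counts per 1000 heavy chain constant counts, all on log axes, with knockouts (red) left of controls (blue). The left ratio runs between 0.152 and 25.7 and the right one between 3.97 and 71.5, while the middle one stays between 0.220 and 0.456.

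Of 348 annotated variable segments, 185 heavy, 160 kappa and 3 lambda, 165 had any count. Their summed counts were 635, 4386 and 157 in knockout replicates 1 to 3, against 1478, 685 and 2601 in control replicates 1 to 3. Segments with at least 3 counts numbered 50, 93 and 22 in the knockouts, against 63, 52 and 70 in the controls. Because that number follows depth, all libraries were also thinned to 157 counts, which left an expected 48.6, 35.4 and 26.0 segments in the knockouts, against 46.9, 46.9 and 43.6 in the controls. Knockout replicates 2 and 3 then had the fewest. Knockout replicate 3 did not need thinning, and its total is small.

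Knockout replicate 2 was dominated by 1 heavy and 1 kappa segment. Ighv11-2 took 620 of its 977 heavy segment counts, or 63.5% (95% exact Clopper-Pearson interval 60.4% to 66.5%). Igkv14-126 took 1863 of its 3126 kappa segment counts, or 59.6% (57.9% to 61.3%). Together these segments are known in mice as the pair carried by B-1 cells that bind phosphatidylcholine. No other library had a leading heavy or kappa segment above 22.2%.

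These 2 exons are shown with that of Igkv1-110, the leading kappa segment of control replicates 1 and 3, because they carry the contrast. Each is given 5′ to 3′ in coding sense from GENCODE vM21 on GRCm38 (mm10), with the codon of the conserved cysteine ahead of the third complementarity-determining region in capitals. Ighv11-2 is at chr12:114048241-114048540 on the minus strand (the last 300 of 307 exon bases), Igkv14-126 at chr6:67896345-67896642 on the plus strand (all 298 bases) and Igkv1-110 at chr6:68270968-68271267 on the plus strand (the last 300 of 313).
Ighv11-2: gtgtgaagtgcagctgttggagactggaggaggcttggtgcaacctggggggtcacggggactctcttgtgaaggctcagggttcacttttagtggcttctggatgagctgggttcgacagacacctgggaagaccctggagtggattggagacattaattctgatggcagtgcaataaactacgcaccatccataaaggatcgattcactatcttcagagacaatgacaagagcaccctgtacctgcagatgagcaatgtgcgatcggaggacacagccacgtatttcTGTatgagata
Igkv14-126: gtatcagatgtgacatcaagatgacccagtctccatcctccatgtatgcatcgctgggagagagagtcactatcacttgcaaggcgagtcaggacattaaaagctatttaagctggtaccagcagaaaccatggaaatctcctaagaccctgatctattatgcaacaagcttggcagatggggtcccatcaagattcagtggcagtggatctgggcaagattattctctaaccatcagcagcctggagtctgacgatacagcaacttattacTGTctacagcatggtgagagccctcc
Igkv1-110: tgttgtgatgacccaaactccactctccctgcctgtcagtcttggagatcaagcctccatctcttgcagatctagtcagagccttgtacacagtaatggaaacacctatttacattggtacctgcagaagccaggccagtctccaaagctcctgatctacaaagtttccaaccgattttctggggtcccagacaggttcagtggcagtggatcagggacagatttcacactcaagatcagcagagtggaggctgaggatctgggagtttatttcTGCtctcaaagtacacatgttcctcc
The genome's copy is printed; junctions and mutations of the expressed antibodies are not in a count table.

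Ighv11-2 took 7.44%, 63.5% and 0% of heavy segment counts in knockout replicates 1 to 3, against 0%, 0% and 9.96% in control replicates 1 to 3. Its partner Igkv14-126 took 8.01%, 59.6% and 0% of kappa segment counts in the knockouts, against 1.95%, 0% and 12.7% in the controls. Both were thus present in knockout replicates 1 and 2 and in control replicate 3, and both were at 0 in knockout replicate 3 and control replicate 2. A count of 0 allows up to 6.98% for Ighv11-2 and 3.03% for Igkv14-126 in knockout replicate 3, where few segment counts were made. In control replicate 2 it allows up to 2.78% and 0.658%, and for Ighv11-2 in control replicate 1 up to 0.737%. Igkv14-126 had a log2 fold change of 2.81 (edgeR adjusted p = 0.770), and 2.31 without control replicate 2 (adjusted p = 0.822). With 6 libraries Ighv11-2, like every other heavy segment, was not tested, because too few libraries held enough counts to pass the filter. Without control replicate 2 its log2 fold change was 3.18 (edgeR adjusted p = 0.776).

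**Figure D4:**
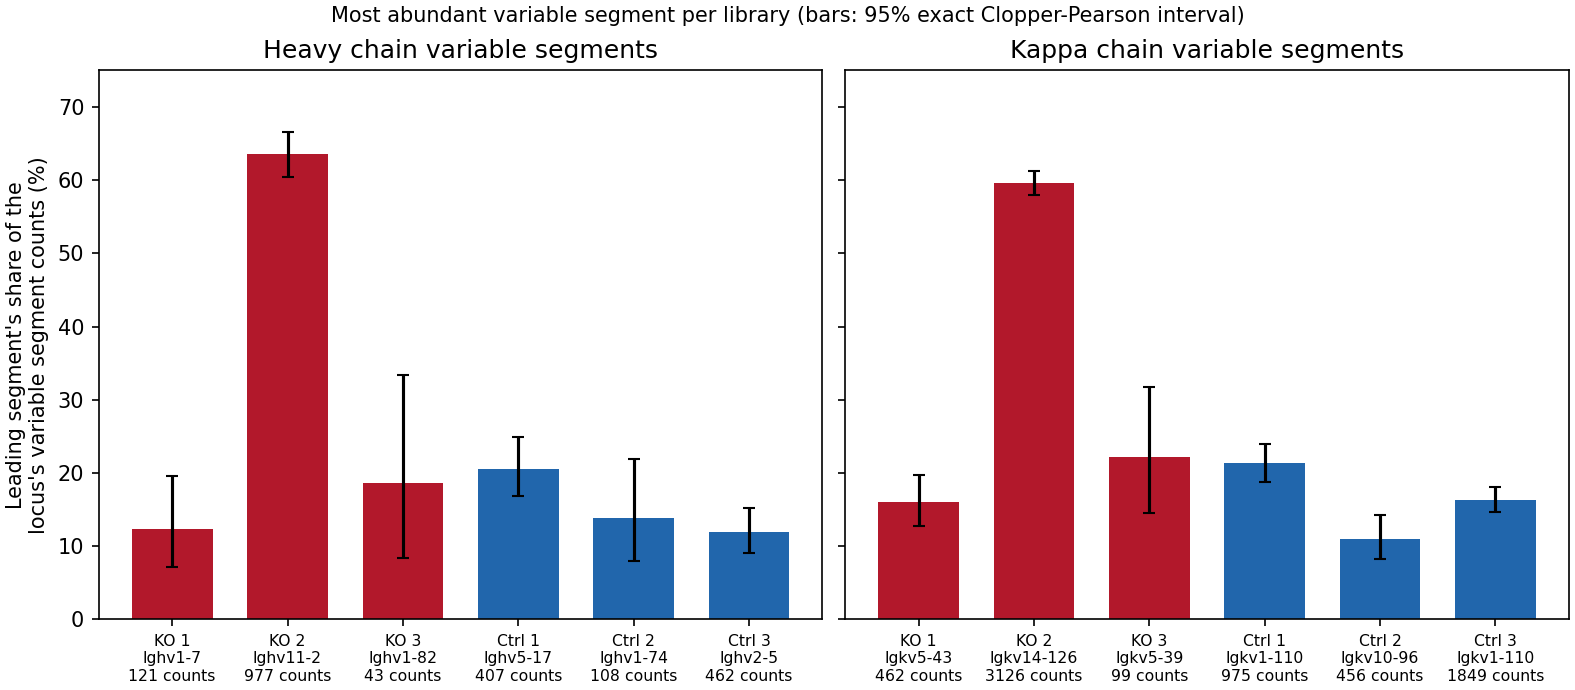
Share of the most abundant variable segment among all heavy (left) or kappa (right) segment counts of each library, in percent, with 95% exact Clopper-Pearson intervals that cover counting error only; knockouts stand left of controls, and the segment and the total count are written below each bar. Knockout replicate 2 stands at 63.5% and 59.6%, and the other 5 libraries at 11.0% to 22.2%.

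In the other libraries the leading segments differed from one to the next. Among heavy segments they were Ighv1-7 with 12.4% in knockout replicate 1 and Ighv1-82 with 18.6% (8 of 43 counts, level with Ighv9-4) in knockout replicate 3. In control replicates 1 to 3 they were Ighv5-17 with 20.6%, Ighv1-74 with 13.9% and Ighv2-5 with 11.9%. Among kappa segments Igkv5-43 led with 16.0% in knockout replicate 1 and Igkv5-39 with 22.2% in knockout replicate 3. Igkv1-110 led with 21.3% and 16.3% in control replicates 1 and 3, and Igkv10-96 with 11.0% in control replicate 2. Igkv1-110 took 5.63%, 5.73% and 3.03% in knockout replicates 1 to 3 and 3.95% in control replicate 2, and its log2 fold change was -1.5 (edgeR adjusted p = 0.774), or -1.92 without control replicate 2 (adjusted p = 0.692). Iglv1 led the lambda segments in 5 libraries, and Iglv2 with 51.4% in control replicate 3.

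Knockout replicate 2, the library with the Ighv11-2 and Igkv14-126 pair, was also the library with the most counts of 2 genes of the mesothelium, the cell layer that covers the peritoneal surface of the fat pad. Upk3b had 1, 435 and 5 counts in knockout replicates 1 to 3, against 3, 54 and 81 counts in control replicates 1 to 3. Msln had 2, 326 and 9 counts in the knockouts, against 4, 36 and 67 counts in the controls. Scaled for library size, control replicate 2 was the highest control for both, with 4.83 CPM of Upk3b and 3.22 CPM of Msln, against 2.97 and 2.46 CPM in control replicate 3. The segment pair was at 0 in control replicate 2 and present in control replicate 3, so the controls did not follow the same order. The summed level of the 8 epididymis and mesothelium genes was 2.68, 45.1 and 4.42 CPM in the knockouts, against 54.0, 439 and 60.3 CPM in the controls, with Krt8 giving most of it in control replicate 2. The part of this tissue in the segment counts was not tested.

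Among the genes compared, those whose levels over the 6 libraries lay closest to Ighm were not B cell genes. Immunoglobulin genes and Jchain were left out of the genes compared, so Ighm, Igkc and Jchain were not set against each other. Likeness was the root mean square difference between log2(CPM + 1) values, each centred on the gene's own mean, over 13057 genes. The closest to Ighm was Cd248, which encodes endosialin of stromal fibroblasts and pericytes, at 0.386, where Ighm itself varied by 1.89 around its mean. Cd248 had 31.6, 62.6 and 21.8 CPM in knockout replicates 1 to 3, against 3.74, 1.97 and 27.6 CPM in control replicates 1 to 3. Next came the collagen genes Col5a3 (0.434) and Col6a3 (0.464), the secreted carboxypeptidase-like gene Cpxm1 (0.464) and the collagen gene Col6a6 (0.466). Without control replicate 2 Cd248 was second closest, at 0.309, after the apelin receptor gene Aplnr at 0.306, and Col5a3 was at rank 8. With 6 points that share libraries this is a description.

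Jchain and Igkc had other neighbours. Among the genes compared, which left out Jchain and Igkc themselves, Slpi was closest to both, at 0.360 from Jchain and 0.548 from Igkc. Slpi encodes a secreted protease inhibitor of leukocytes and epithelia. It had 1.63, 17.9 and 0.776 CPM in the knockouts, against 5.39, 13.1 and 3.81 CPM in the controls. Gpm6a, a membrane glycoprotein gene, followed at 0.427 and 0.649. After them Jchain was nearest to Nav2 (0.534), Sema3d (0.571) and Ndst1 (0.643), and Igkc to Mzb1 (0.746), Ndst1 (0.786) and Nav2 (0.788). Jchain itself varied by 1.13 and Igkc by 1.32 around the mean. Over the 5 libraries without control replicate 2, Slpi and Gpm6a were the only 2 of the 5 that stayed among the nearest 5 of each gene.

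**Figure D5:**
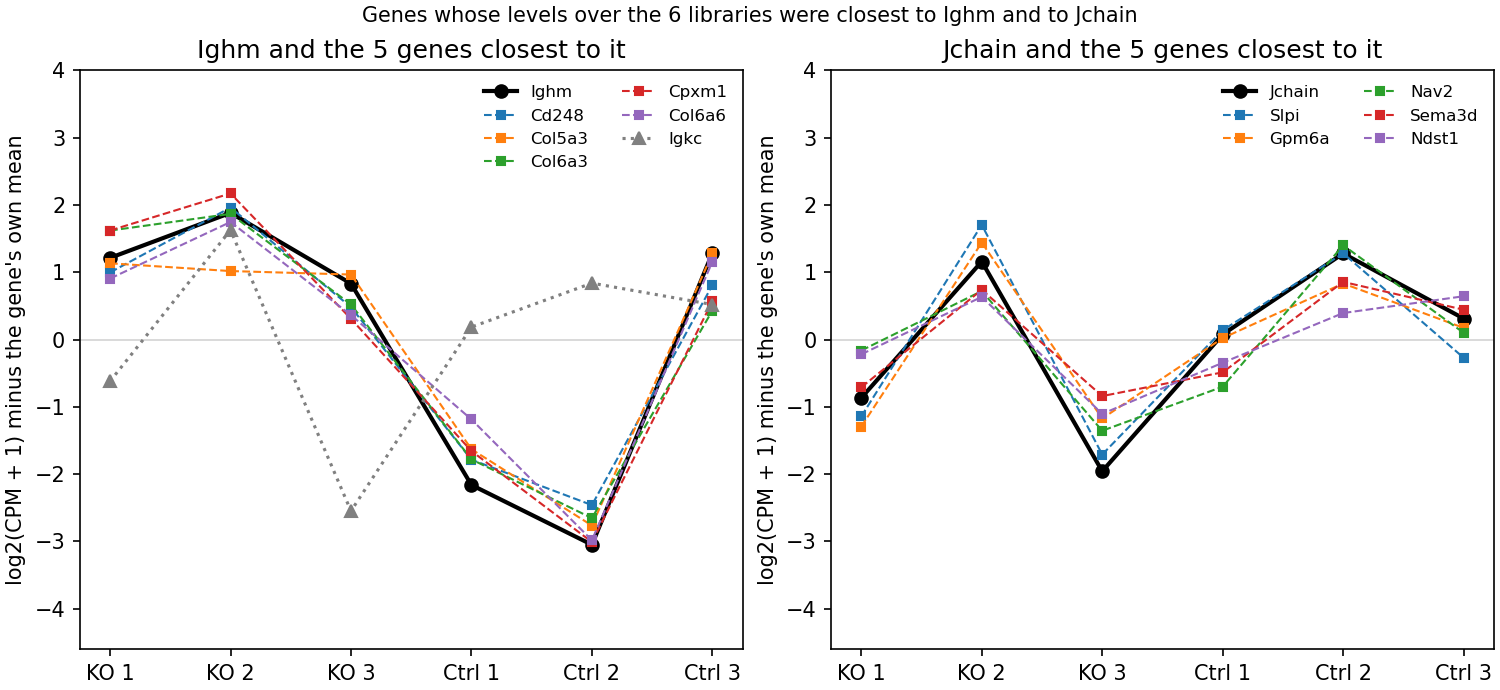
Log2(CPM + 1) minus each gene's own mean, over the 3 knockouts and then the 3 controls. Shown are Ighm (left) and Jchain (right), both black, with the 5 genes closest to each once immunoglobulin genes and Jchain are left out. Igkc is dotted in the left panel. Ighm and Cd248 are low in control replicates 1 and 2, where they have 48.4 and 25.7 CPM and 3.74 and 1.97 CPM, and Jchain and Slpi are lowest in knockout replicate 3, with 8.07 and 0.776 CPM.

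B cell identity genes mostly had positive log2 fold changes, and edgeR called 0 of them. Of 17 genes 13 could be tested with 6 libraries, 12 had a log2 fold change above 0 and the median was 2.27, beside -0.03 for all genes tested. Without control replicate 2 it was 2.72 for 15 genes, with 14 above 0, beside -0.04 for all genes tested. DESeq2 called 4 of the 17 as higher in knockouts with 6 libraries (Cd22, Cd79a, Pax5 and Tnfrsf13c), where it called 1.42% of all genes as higher. Without control replicate 2 it called 5 (Blk, Cd22, Cd37, Cd79a and Pax5), where it called 2.2% of all genes as higher. The list was summed to 163, 176 and 102 CPM in knockout replicates 1 to 3, against 103, 13.7 and 134 CPM in control replicates 1 to 3, so that the sums overlapped. Ebf1, which adipocytes also make, supplied 67.3, 46.9 and 73.6 CPM of the sums in knockout replicates 1 to 3, against 88.5, 2.24 and 115 CPM in control replicates 1 to 3. Without Ebf1, left out after its values were seen, the other 16 genes summed to 95.3, 129 and 28.6 CPM in the knockouts. The controls summed to 14.9, 11.4 and 19.6 CPM, and the groups did not overlap. That separation rests on Cd37, which supplied 20.4 of the 28.6 CPM in knockout replicate 3. In control replicate 2 it supplied 0.984 of the 11.4 CPM. With Cd37 also left out, knockout replicate 3 would lie below control replicate 2.

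Cd79a, the signalling partner of the B cell receptor, had 144, 268 and 45 counts in knockout replicates 1 to 3, against 22, 9 and 22 counts in control replicates 1 to 3. Each knockout lay above each control in CPM, with a log2 fold change of 2.69 ± 0.72 (SE, edgeR adjusted p = 0.560, DESeq2 adjusted p = 0.0206). Cd22, an inhibitory co-receptor of B cells, had a log2 fold change of 3.81 ± 0.99 (edgeR adjusted p = 0.560, DESeq2 adjusted p = 0.00691), and Pax5, the transcription factor that fixes B cell identity, one of 4.02 ± 1.12 (edgeR adjusted p = 0.560, DESeq2 adjusted p = 0.0174). Pax5 had 76, 77 and 11 counts in the knockouts, against 4, 0 and 4 counts in the controls. Blk, a B cell kinase, had 3.76 ± 1.24 and was past DESeq2's threshold without control replicate 2 alone. Ms4a1, the gene of CD20, had 116, 175 and 13 counts in the knockouts, against 5, 23 and 19 counts in the controls. For Ms4a1 the groups overlapped, as knockout replicate 3 lay below control replicates 2 and 3 in CPM. In Cd79a, Pax5 and Ms4a1 alike, knockout replicate 2 was the highest library and knockout replicate 3 the lowest knockout. Plasma cells are known to shut down Pax5 and Ms4a1.

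Plasma cell genes were spread around 0. All 18 genes were tested, 8 were above 0 and the median log2 fold change was -0.21, or 0.21 with 11 above 0 without control replicate 2. edgeR and DESeq2 called 0 of them in either set. Many of the 18 serve secretion in other cells too, and their sums were 660, 747 and 597 CPM in the knockouts, against 893, 1300 and 558 CPM in the controls. Xbp1, the transcription factor of the secretory programme, had 195, 175 and 178 CPM in the knockouts, against 319, 371 and 178 CPM in the controls. Tnfrsf17, the gene of the plasma cell survival receptor BCMA, had 12, 20 and 15 counts in the knockouts, against 4, 0 and 18 counts in the controls. Prdm1, which encodes Blimp-1, had 176, 226 and 39 counts in the knockouts, against 10, 3 and 72 counts in the controls. Irf4, a transcription factor that plasma cells need, had 238, 168 and 143 counts in the knockouts, against 200, 3 and 174 counts in the controls. Sdc1, the gene of CD138, had 1605, 3738 and 969 counts in the knockouts, against 477, 2983 and 1108 counts in the controls, and hepatocytes also make it. The smallest unadjusted p of the list belonged to Tnfrsf13b, the gene of the receptor TACI (log2 fold change 2.09 ± 0.69, edgeR adjusted p = 0.560). Then came the B cell coactivator Pou2af1 (2.21 ± 1.00, adjusted p = 0.560), Tent5c, which stabilises immunoglobulin mRNA (-1.72 ± 0.81, adjusted p = 0.561), and Prdm1 (2.18 ± 1.08, adjusted p = 0.575). None of the 5 defining genes ordered the libraries as Jchain or Igkc did.

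edgeR called 0 of the genes of class switching and germinal centres. Of the 12 genes 10 were tested, Rgs13 having too few counts, 7 were above 0 and the median log2 fold change was 0.15, or 0.36 without control replicate 2. S1pr2, a receptor that holds B cells in germinal centres and is also made by other cells, had 23.7, 42.1 and 7.61 CPM in the knockouts, against 5.54, 12.9 and 5.06 CPM in the controls. Its log2 fold change was 1.65 ± 0.70 (edgeR adjusted p = 0.560), and DESeq2 called it without control replicate 2 alone (adjusted p = 0.0375, against 0.307 with 6 libraries). Bcl6, Mybl1 and Msh6 followed, at 1.12, 0.66 and 0.26 with edgeR adjusted p values of 0.567, 0.797 and 0.855.

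Factors that recruit B cells or keep them alive were not called either. Of 10 genes 7 were tested, 4 were above 0 and the median log2 fold change was 0.57, or 0.64 without control replicate 2. Tgfb1, a cytokine that directs switching to IgA, had 119, 185 and 55.5 CPM in the knockouts, against 33.0, 13.9 and 41.7 CPM in the controls. Each knockout lay above each control, with a log2 fold change of 2.02 ± 0.60 (edgeR adjusted p = 0.560, DESeq2 adjusted p = 0.0669). Tnfsf13b, the gene of the B cell survival factor BAFF, had 5.36, 2.88 and 3.76 CPM in the knockouts, against 3.26, 1.34 and 3.41 CPM in the controls (log2 fold change 0.57 ± 0.55, edgeR adjusted p = 0.788). Tnfsf13, the gene of APRIL, had a log2 fold change of 1.63 ± 1.09 (adjusted p = 0.676), and Il10 one of 1.59 ± 1.58 (adjusted p = 0.803).

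Receptors that bind antibody are carried by macrophages, which are among the cells where Lyz2-Cre acts. Of 10 receptor and transport genes 8 were tested, 5 were above 0 and the median log2 fold change was 0.60, or 0.52 without control replicate 2. Fcgr1, the high-affinity IgG receptor, had 28.1, 41.0 and 5.78 CPM in the knockouts, against 4.27, 2.68 and 4.51 CPM in the controls. Its log2 fold change was 2.70 ± 0.73 (SE, edgeR adjusted p = 0.560), and DESeq2 called it as higher with and without control replicate 2 (adjusted p = 0.0222 and 0.0267). Fcer1g, the signalling chain shared by these receptors, had 1.82 ± 0.62 (edgeR adjusted p = 0.560), and Fcgr3, the low-affinity activating IgG receptor, 1.5 ± 0.77 (edgeR adjusted p = 0.587). The 12 macrophage genes, Fcgr1 among them, summed to 4350, 5140 and 1180 CPM in the knockouts, against 1020, 354 and 865 CPM in the controls, with 12 of 12 above 0 and a median log2 fold change of 2.55. Without control replicate 2, 11 of 12 were above 0 and the median was 2.17. DESeq2 called 6 of the 12 as higher with 6 libraries and 7 without that library, beside 1.42% and 2.2% of all genes, and edgeR called 0. Whether these receptors differ beyond the macrophage genes as a whole was not tested. Pigr, which carries polymeric IgA and IgM across epithelia and is made by hepatocytes, had 5, 423 and 11 counts in the knockouts, against 191, 15292 and 2466 counts in the controls. DESeq2 called it as lower with 6 libraries (adjusted p = 0.0103) and not without control replicate 2 (adjusted p = 0.597), and edgeR gave a log2 fold change of -6.57 ± 2.64 (adjusted p = 0.560). Its highest library was the one with the most hepatocyte transcripts.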

How the data were processed

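Libraries of mRNA purified from total RNA of mouse fat tissue were sequenced, and the submitters' processing notes name the build mm10 and the tools featureCounts 1.5.0-p3, fastp, StringTie 1.3.3b and HISAT2 2.0.5. How strand and reads matching several genes were handled, and the annotation release, is not given in the sources used here. The authors deposited raw counts for 54532 gene identifiers, used for all tests, and FPKM values, used here for shares and ratios within a library, where the authors' library scale cancels. Symbols were found for 54409 identifiers; positions and sequences are from GENCODE vM21 on GRCm38.

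Counts were tested with edgeR 4.0.16 in R 4.3.3 (robust quasi-likelihood, TMM factors 0.982 to 1.25, and 0.559 in control replicate 2, filterByExpr by group, Benjamini-Hochberg adjustment, threshold 0.05), with 6 libraries and without control replicate 2. Dividing the log2 fold change by the square root of F gave its standard error. Fewer than 3 counts was taken as the floor. Clopper-Pearson intervals cover counting error only. Likeness used genes with a mean log CPM of at least 1 and left out immunoglobulin genes, Jchain and identifiers without a symbol. Alternatives were DESeq2 1.42.0, limma 3.58.1 (voom, and log2(FPKM + 1) or log2(FPKM + 0.1)), DESeq2's size factors, no filter, immunoglobulin counts taken out of the library totals, and libraries left out. DESeq2 and limma-voom without control replicate 2, and the B cell sum without Ebf1, were added after seeing the data. The fits were tested on simulated counts.

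The members and the 14 gene lists were chosen with earlier results of these data known. In each list up to 4 tested genes of smallest unadjusted p are named, with the defining B and plasma cell genes. Ebf1, Alb, Upk3b, Msln and Krt8 and the genes that DESeq2 called were chosen after their values were seen. Replicate numbers follow accession order and pair nothing. No column of other samples was present. Some genes of the lists are not reported here.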

Additional observations from a re-analysis of the deposited data

How the results depend on the processing

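No paired analysis was possible because the labels give no replicate numbers shared between the groups. Under every alternative run 0 members were called. The count of all genes called was 0 with edgeR and limma under each alternative, 530 with DESeq2, and, without control replicate 2, 482 with DESeq2, an alternative added after seeing the data. Of 160 alternative values of the members' log2 fold changes 150 kept their direction, and 5 members, Ighm, Ighd, Ighg2b, Ighg2c and Jchain, kept it in all of them. The direction turned for Igha without control replicate 1 (0.04), for Ighg1 (0.23) and Ighg3 (6.23) without control replicates 2 and 3, and for Igkc under that setting (0.22) and without control replicate 2 (0.07, or 0.05 by DESeq2), knockout replicate 1 (0.18) or knockout replicate 3 (0.37). With 1 library left out in turn the values ran from -1.93 to 0.04 for Igha, -1.84 to 0.37 for Igkc and -1.26 to 1.85 for Mzb1. The direction also turned for Mzb1 without knockout replicate 2 (-1.26) and with FPKM and a pseudocount of 0.1 (-0.02). The Ighg3 value rests on control replicate 1, which had 0 counts, and the cause of the others was not tested. Leaving out 1 library moved the mean Ighm share between 90.8% and 94.3% in knockouts and between 16.8% and 58.7% in controls. The mean number of variable segments at 3 counts or more was 55.0 in knockouts and 61.7 in controls. At 1 count or more it was 76.3 in knockouts and 71.3 in controls, at 10 or more 21.0 in knockouts and 36.3 in controls, and after thinning to 157 counts 36.7 in knockouts and 45.8 in controls. With 1 library left out it ran from 36.0 (without knockout replicate 2) to 71.5 (without knockout replicate 3) in knockouts and from 57.5 to 66.5 in controls. Counts of Ighg1, Ighg3, Mzb1 and single heavy segments are too low in several libraries to separate a small difference from 0.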

Other observations

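The variable segments and markers of other cells add values outside the comparison of members. Control replicate 2 had 99 counts of Dntt, the polymerase that adds bases to immunoglobulin and T cell receptor joints, against 0 to 7 in the other 5 libraries. Vpreb1, a surrogate light chain gene of B cell precursors, had 5, 4 and 1 counts in the knockouts and 0, 9 and 0 counts in the controls, and Vpreb2 had 3 counts in control replicate 2 and 0 elsewhere. Igll1, Rag1 and Rag2, which also mark precursors, had 0 counts in all 6 libraries. edgeR could test 0 of the 6 precursor genes, and DESeq2 gave none of them an adjusted p. In the list of lymph node stroma, Mfge8 had 35909, 27950 and 17725 counts in the knockouts and 12198, 214 and 13306 counts in the controls. Lyve1 had 400, 332 and 750 counts in the knockouts and 814, 272 and 846 counts in the controls. Prox1 had 5, 64 and 6 counts in the knockouts and 49, 1541 and 146 counts in the controls. Chst4, Madcam1, Glycam1 and Ccl21a were low and scattered over the libraries. Chst4 had 0, 36 and 0 counts in the knockouts and 0, 13 and 5 counts in the controls, and Madcam1 had 0, 5 and 0 counts in the knockouts and 29, 0 and 0 counts in the controls. Glycam1 had 8, 0 and 0 counts in the knockouts and 0 in every control, and Ccl21a had 0, 2 and 0 counts in the knockouts and 2, 0 and 0 counts in the controls. Of the 8 genes of that list that were found, 3 were tested, with 1 above 0, a median log2 fold change of -0.67 and 0 called by edgeR or DESeq2. Crisp1, made by the epididymis, had 68, 70 and 5 counts in the knockouts and 1033, 33 and 205 counts in the controls, and control replicate 1 was the library with the most Igha. The part of epididymal tissue in that level was not tested.

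T cell genes, whose products include PD-1's best known carriers, had 9 of 10 log2 fold changes above 0, with a median of 1.08, or 10 of 10 and 0.77 without control replicate 2. edgeR called 0 of them. Trac, which encodes the α chain's constant part in the T cell receptor, had 15.7, 9.89 and 13.3 CPM in the knockouts and 1.35, 1.97 and 2.42 CPM in the controls, and each knockout lay above each control. Its log2 fold change was 2.76 ± 0.43 (SE, edgeR adjusted p = 0.560), and DESeq2 called it with and without control replicate 2. Adipocyte genes had 6 of 12 above 0 with a median of -0.01 (-0.55 without control replicate 2), the 14 hepatocyte genes had 0 above 0 with a median of -7.08 (-2.85 without it), and the 5 epididymis and mesothelium genes tested had 3 above 0 with a median of 0.09 (2 above 0 and -0.35 without it).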
